A study of Mus musculus with 12 samples.

Results

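Gene expression was compared between LLC tumours of the mouse lung and normal adjacent lung in the animals labelled VEH, 3 libraries of each tissue. These 6 libraries, chosen by the tissue and treatment in their labels, are part of a series of 12. The other 6 libraries are the same tissues from animals given HDM, which the series title spells out as house dust mite. LLC and VEH are used as the labels give them, and the labels name no strain, genotype or age. Both tissues were cut out by hand under a microscope, frozen and sectioned, and all 12 libraries carry the same batch label. The tumour VEH libraries held 20608682 to 26706879 counts and the normal VEH libraries 25844407 to 32765364. The labels do not say whether the replicates came from separate animals, so the p-values measure only a spread between libraries, which may be technical. That spread was estimated within the groups of all 12 libraries. RNA came from whole pieces of tissue, so fewer cells of a type and less RNA per cell cannot be told apart. Levels are CPM, counts relative to the scaled total of their library, and differences are log2 changes, tumour minus normal, ± their standard error.

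Lung tissue is built around gas exchange. Flat alveolar type 1 cells lie against a dense capillary bed, alveolar type 2 cells make surfactant, and club and ciliated cells line the airways. The outer surface is covered by mesothelium, and fibroblasts, smooth muscle and resident alveolar macrophages fill the remaining space. A solid tumour replaces this architecture with dividing cells in a matrix of their own, which recruited immune cells enter. Interferon gamma from T and NK cells induces chemokines and antigen presentation, whereas type I interferons act through IRF proteins on antiviral genes.

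The lung markers were checked first. The surfactant gene Sftpc stood at 8497, 21697 and 21129 CPM in the normal libraries and at 1198, 4680 and 982 CPM in the tumours, each in the order of VEH replicates 1, 2 and 3, which is kept throughout. Endothelial Pecam1 stood at 297 to 614 CPM in normal lung. Both genes were lower but not at 0 in the tumour pieces. Mitochondrial genes took 0.896% to 1.79% of counts in tumours and 2.52% to 5.38% in normal lung, and the part of this share in the results was not tested. Normal VEH replicate 2 stood apart from the other normal libraries. Its summed mitosis genes reached 387 CPM (97.4 and 90.1 CPM in replicates 1 and 3), its alveolar macrophage genes 8160 CPM (254 and 378 CPM) and its B and plasma cell genes 3720 CPM (213 and 107 CPM). Its airway, smooth muscle and endothelial genes were lower than in the other normal libraries. Tumour VEH replicate 2 stood apart in the opposite sense, with 24400 CPM of summed club cell genes against 607 and 7230 CPM in replicates 1 and 3. Library names carry a prefix that joins 1 tumour and 1 normal library. It joins tumour VEH replicate 1 to normal VEH replicate 1 and tumour VEH replicate 2 to normal VEH replicate 3. Normal VEH replicate 2 shares its prefix with a tumour labelled HDM, and tumour VEH replicate 3 with a normal library labelled HDM. These are called the 4 libraries of conflicting prefixes. The labels were kept as given. Some values are also given without both libraries that stand apart, a choice made after seeing the data.

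Tumour and normal tissue differed across much of the transcriptome. Of 22190 genes tested, 38.9% passed an adjusted p of 0.05 (edgeR quasi-likelihood test, Benjamini-Hochberg over all genes), 18.2% of all genes higher and 20.6% lower in tumours. Large changes were mostly falls, since 1181 genes fell by at least 3 log2 units and 414 rose by as much. Leaving out each of the 6 libraries in turn kept 4627 genes called in every fit (20.9% of those tested), 2540 of them higher and 2087 lower. The libraries of the 2 tissues did not overlap for 52.4% of genes, 23.9% with all tumours higher and 28.5% with all tumours lower. These shares are the background against which the gene lists below are read, together with the median change of all genes, -0.11. With the library-name prefix as a block 5783 genes were called. Whether the counting used the strand is not stated. The counts of a gene on the opposite strand came to 50% or more of a named gene's own for 16 of the 158 genes named here (Angpt2, Ccne1, Cd274, Cd80, Cdk1, Clec9a, Col4a1, Ephx1, Esrp2, Irf7, Isg15, Lrrn4, Orc1, Pkm, Tap1 and Timp3), whose values are uncertain for that reason.

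**Figure D1:**
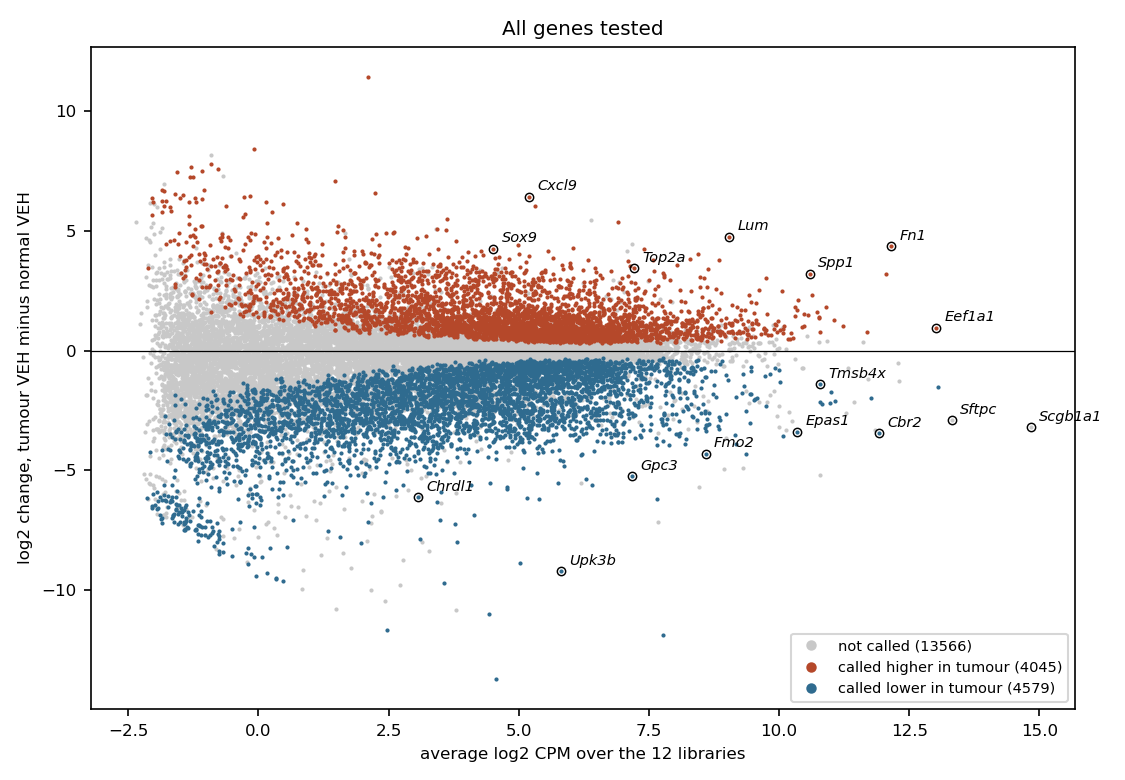
Each point is 1 of 22190 genes, with its average level over the 12 libraries (log2 CPM) on the x axis and its log2 change, tumour VEH minus normal VEH, on the y axis; coloured points passed an adjusted p of 0.05 and some genes given in the text are labelled. The lower cloud reaches farther from 0 than the upper one, with 1181 genes lower and 414 higher by at least 3; fitted changes of genes at 0 counts in a group depend on the prior count and are not bounds.

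**Figure D2:**
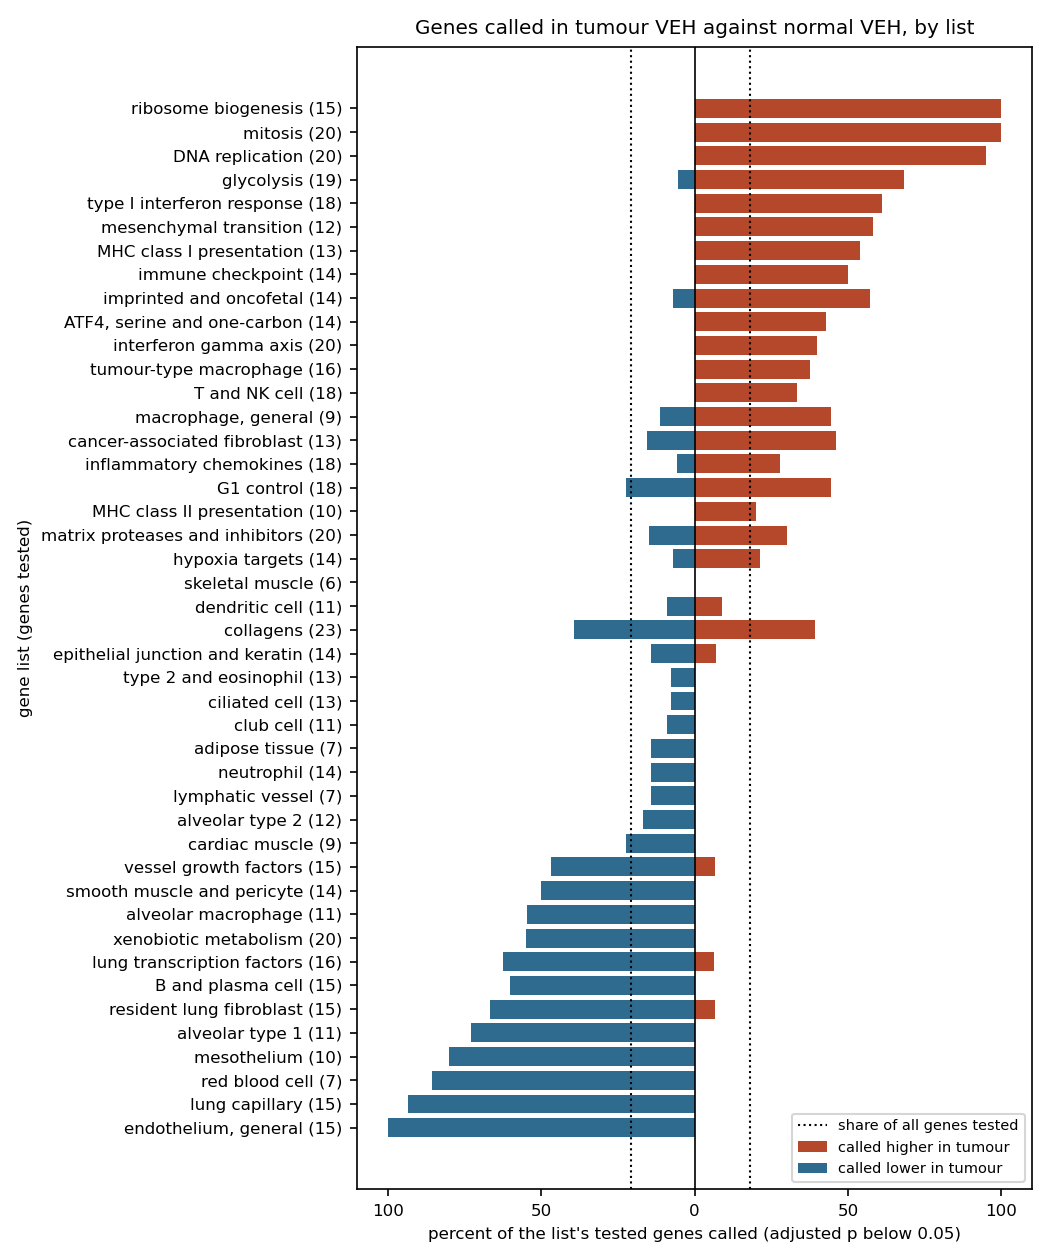
Bars show, for each gene list, the percent of its tested genes called higher (right) and lower (left) in tumours, and dotted lines mark the shares among all genes tested, 18.2% and 20.6%. The mitosis, DNA replication and ribosome biogenesis lists lie far to the right and the endothelial and capillary lists far to the left.

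Genes of cell division rose almost as a block. All 20 mitosis genes rose, by a median of 3.07, and 19 of 20 DNA replication genes rose, by a median of 2.35. Top2a (ENSMUSG00000020914, chromosome 11, 98883769 to 98915062, GRCm39), which untangles replicated DNA, stood at 252, 270 and 269 CPM in the tumours and at 10.6, 52.2 and 9.09 CPM in normal lung. Its change was 3.46 ± 0.64 (adjusted p 0.00286). The tumours were nearly level, and normal VEH replicate 2 stood well above the other normal libraries. Mcm6 (ENSMUSG00000026355, chromosome 1, 128259311 to 128287516), a subunit of the replicative helicase, was at 182, 142 and 221 CPM against 27, 46.6 and 30.3 CPM, a rise of 2.39 ± 0.23 (adjusted p 0.000304). The proliferation marker Mki67 rose by 3.29 ± 0.56, and without both libraries that stand apart by 4.39. The mitosis median was 4.31 without them. In the leave-one-out fits 18 mitosis and 17 replication genes stayed called. The replication genes lost were the origin gene Orc1 and the helicase-loading gene Gins1, with adjusted p of 0.0501 and 0.0555 without normal VEH replicate 3. The mitosis genes lost were the cyclin gene Ccnb2 and the kinetochore gene Nuf2, with adjusted p of 0.0536 and 0.0522 without normal VEH replicate 1.

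Promoters of 3 mitotic kinase and cyclin genes that rose are shown because they carry both strings of letters searched for in cell cycle promoters. The strings were TTTGAA, the core of the cell cycle homology region, and CCAAT, on either strand. Each line gives the 130 bases just before the annotated start of the gene, in the gene's direction, from GRCm39, with matches in capitals. Cdk1 drives entry into mitosis (chr10:69188769-69188898, minus strand), Ccnb2 encodes a cyclin partner of that kinase (chr9:70328875-70329004, minus strand), and Aurkb encodes a kinase of chromosome attachment (chr11:68936337-68936466, plus strand).
Cdk1: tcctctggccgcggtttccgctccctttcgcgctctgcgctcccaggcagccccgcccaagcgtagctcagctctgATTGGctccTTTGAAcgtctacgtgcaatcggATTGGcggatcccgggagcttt
Ccnb2: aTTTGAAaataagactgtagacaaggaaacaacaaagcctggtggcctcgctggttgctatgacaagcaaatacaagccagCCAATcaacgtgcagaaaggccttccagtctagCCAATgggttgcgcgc
Aurkb: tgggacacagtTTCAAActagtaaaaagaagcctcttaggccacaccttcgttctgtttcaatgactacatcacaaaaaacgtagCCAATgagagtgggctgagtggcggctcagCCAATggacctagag
Within 250 bases before the start, TTTGAA occurred in 6 of the 20 mitosis promoters (30.0%) and in 12.9% of the 15062 promoters of protein-coding genes tested. CCAAT occurred in 8 of the 20 and in 35.3% of all, and 4 mitosis promoters held both. Among genes called higher and called lower, TTTGAA was found in 12.6% and 12.4%. In the other lists searched its share ran from 5.56% (type I interferon response) to 33.3% (general endothelium, whose genes were all called lower). These matches describe letters only. Cdk1 stood at 75.2, 60.2 and 89.6 CPM in tumours and 5.75, 23.2 and 5.39 CPM in normal lung, and Aurkb at 51.7, 53.7 and 42.6 CPM against 1.31, 11 and 1.09 CPM. For both genes every tumour lay above every normal library, and the highest normal value was that of replicate 2.

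Regulators of the G1 phase moved in both directions, with 8 of 18 higher and 4 lower. The rises included E2f1, the transcription factor that opens S phase (1.62 ± 0.21), the cyclin gene Ccne1 (2.96) and the kinase gene Cdk6 (1.27). The p53 gene Trp53 was at 139, 137 and 158 CPM in tumours and 41.5, 51.2 and 34.1 CPM in normal lung, a rise of 1.77 ± 0.17 (adjusted p 0.000304). Its groups were well separated. Myc, a driver of growth, was at 360, 388 and 264 CPM in tumours and at 6.24, 115 and 8.76 CPM in normal lung. Its rise of 2.95 ± 0.94 (adjusted p 0.0307) held without normal VEH replicate 2 and was lost when any of the other 5 libraries was left out (adjusted p up to 0.0772). Falls were seen among inhibitors of cyclin-dependent kinases. Cdkn2b fell by 2.48 and Cdkn1b by 0.93, in every leave-one-out fit. Cdkn1c fell by 3.63 ± 0.90, from 111, 36.4 and 85 CPM to 1.1, 13.8 and 3.69 CPM, with an adjusted p of 0.0522 without tumour VEH replicate 3. The inhibitor gene Cdkn2a was at 0.185 to 0.765 CPM in tumours and 0.575 to 1.52 CPM in normal lung and was not called.

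Genes that build ribosomes rose as a block. All 15 ribosome biogenesis genes were higher (median 1.68), and all 15 stayed called whichever library was left out. Nop58, a core protein of the particles that modify ribosomal RNA, stood at 152, 101 and 140 CPM in tumours against 25.8, 39 and 26.7 CPM. Its rise was 2.10 ± 0.21 (adjusted p 0.000321). Even the lowest tumour stood far above the highest normal library.

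Of 19 glycolysis genes, 13 rose and 1 fell, with a median of 1.26. Eno1 (ENSMUSG00000063524, chromosome 4, 150321073 to 150337027), the enolase of glycolysis, was at 1648, 1164 and 1648 CPM in tumours and 189, 449 and 139 CPM in normal lung. It rose by 2.52 ± 0.40 (adjusted p 0.00136). The glucose transporter gene Slc2a1 rose by 1.75, the pyruvate kinase gene Pkm by 2.12 and the lactate dehydrogenase gene Ldha by 1.51. The other lactate dehydrogenase gene, Ldhb, went the opposite way, from 545, 188 and 433 CPM to 9.35, 92.7 and 37.2 CPM. That fall of 3.07 ± 0.85 had an adjusted p of 0.0707 without tumour VEH replicate 3. Of 14 hypoxia targets 3 were higher and 1 lower (median 0.25). Without normal VEH replicate 2, 6 were higher (median 0.53), as they were without both libraries that stand apart. The gene that fell was Vegfa, the main growth factor of vessels. The hypoxia marker Car9 changed by -0.47 and was not called.

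In a list of the stress factor gene Atf4, its targets and genes of serine and one-carbon metabolism, which feeds nucleotide synthesis, 6 of 14 genes rose and none fell (median 0.89). Shmt2, the mitochondrial serine hydroxymethyltransferase, was at 147, 117 and 138 CPM in tumours and 22, 42.7 and 13.9 CPM in normal lung, a rise of 2.35 ± 0.34 (adjusted p 0.000834). Phgdh and Psat1, which make serine, rose by 2.68 and 2.42, and the folate enzyme gene Mthfd2 by 2.69. Atf4 itself changed by 0.25 and was not called at the RNA level. Without normal VEH replicate 2, and without both libraries that stand apart, 10 of the 14 rose.

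Imprinted and oncofetal genes, which are active in the embryo and mostly silent in adult tissue, were higher for 8 of 14 and lower for 1. Only 4 of these calls survived leaving out every library in turn. One of them was Hmga1, a chromatin protein gene of embryonic growth, at a mean of 635 ± 117 CPM in tumours and 100 ± 112 CPM in normal lung (SD, n = 3 each). It rose by 2.66 ± 0.67 (adjusted p 0.0115). Igf2bp2, which encodes an RNA-binding protein, rose by 1.93 and the retrotransposon-derived gene Peg10 by 2.73. H19 was uneven, at 131, 15.5 and 7.52 CPM in the 3 tumours. Plagl1, an imprinted zinc finger gene, fell by 3.0, a call lost without normal or tumour VEH replicate 1 or 3 (adjusted p up to 0.133).

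**Figure D3:**
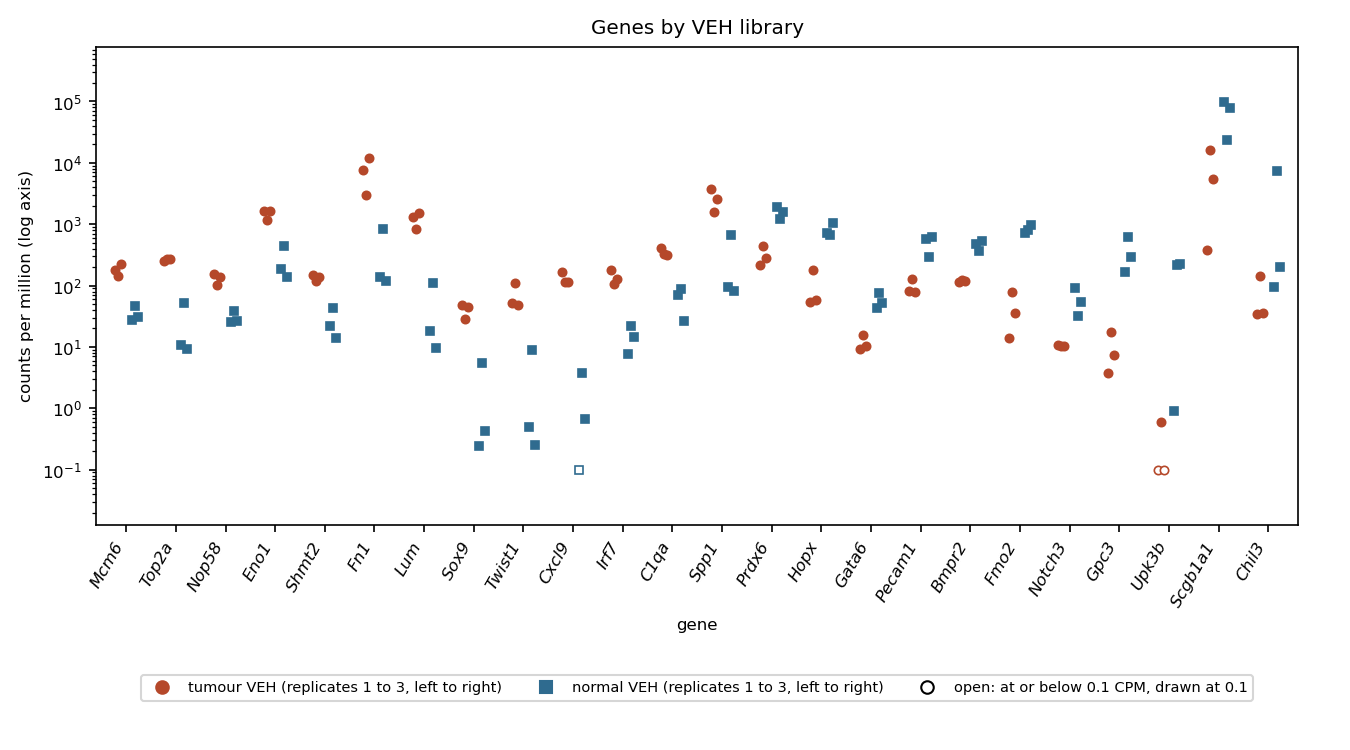
Levels in CPM (log axis) of 24 genes in the 3 tumour VEH and 3 normal VEH libraries, with the genes side by side on a shared axis. There is 1 point per library, with open symbols for values at or below 0.1 CPM. In Top2a, Fn1 and Twist1 normal VEH replicate 2 is the highest normal library, and in Scgb1a1 tumour VEH replicate 2 is the highest tumour.

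Genes of mesenchymal identity rose in 7 of 12 cases and none fell (median 1.78), and all 7 calls held without any 1 library. Fibronectin, Fn1 (ENSMUSG00000026193, chromosome 1, 71624673 to 71692419), was at 7765, 2982 and 12103 CPM in tumours and 139, 847 and 119 CPM in normal lung. It rose by 4.37 ± 0.83 (adjusted p 0.00316), and by 6.27 without both libraries that stand apart. Twist1, a transcription factor of mesoderm and of epithelial-to-mesenchymal transition, was at 51.5, 110 and 47.8 CPM against 0.493, 8.94 and 0.253 CPM, a rise of 4.41 ± 1.04 (adjusted p 0.00866). The mesenchymal homeobox gene Prrx1 rose by 2.89, the intermediate filament gene Vim by 1.81, N-cadherin Cdh2 by 1.75 and the repressor gene Snai1 by 1.75. The related factors Zeb1 and Zeb2, at -0.13 and -0.17, were not called. Sox9, a developmental transcription factor of cartilage and lung buds, was at 47.7, 28.6 and 45.4 CPM in tumours and 0.246, 5.54 and 0.421 CPM in normal lung (4.26 ± 0.92, adjusted p 0.0057).

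Epithelial junction and keratin genes were lower in all 3 tumours than in all 3 normal libraries for 12 of 14, but only 2 passed the test as lower and 1 as higher. The tight junction gene Ocln fell by 1.80 ± 0.31, from 72.5, 52.8 and 73.6 CPM to 14.7, 30.2 and 12.1 CPM (adjusted p 0.00179). Esrp2, a splicing regulator of epithelia, fell by 2.09. E-cadherin, Cdh1, was at 691, 377 and 629 CPM in normal lung and at 43.3, 206 and 95.4 CPM in tumours without passing (-2.30 ± 1.28, adjusted p 0.171). The keratin gene Krt18 rose by 0.64, with the call lost without normal VEH replicate 1, tumour VEH replicate 3 or normal VEH replicate 3 (adjusted p up to 0.0823). Krt8 was at 309 to 507 CPM in tumours and 343 to 431 CPM in normal lung. The median of the list was -1.97. Without tumour VEH replicate 2, and without both libraries that stand apart, 6 were called lower (medians -2.90 and -2.99). The DESeq2 Wald test called 8 lower and the fit of the 6 VEH libraries 7.

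In the main fit the alveolar type 1 list had a larger share called lower than all genes (20.6%). The other lung epithelial lists had a smaller one despite negative medians. Of 12 alveolar type 2 genes 2 were called lower (median -2.11), of 11 alveolar type 1 genes 8 (median -3.01), of 11 club cell genes 1 (median -2.15) and of 13 ciliated cell genes 1 (median -1.73). These counts depended on the fit. The fit of the 6 VEH libraries called 8 type 2, 11 type 1, 0 club cell and 1 ciliated cell genes lower. The DESeq2 Wald test called 4, 10, 5 and 4 lower, in the same order. Hopx (ENSMUSG00000059325, chromosome 5, 77234831 to 77263022), a homeodomain protein gene of type 1 cells, fell from 729, 672 and 1036 CPM to 53.8, 181 and 57.8 CPM. Its change was -3.06 ± 0.49 (adjusted p 0.0014). Abca3, the lipid pump of surfactant granules, fell by 1.74 ± 0.29, from 289, 430 and 354 CPM to 87.9, 137 and 96.3 CPM. The tumour with the most of each was replicate 2. Scgb1a1, the secretoglobin of club cells, was at 97559, 23837 and 78318 CPM in normal lung and at 385, 16272 and 5354 CPM in tumours, and did not pass (-3.18 ± 1.58, adjusted p 0.13). Without tumour VEH replicate 2, 3 club cell and 7 ciliated cell genes were called lower, and without both libraries that stand apart 4 and 8. Without normal VEH replicate 3, tumour VEH replicate 1 or tumour VEH replicate 3, 5 type 1 genes were called lower. The count was 3 without the 4 libraries of conflicting prefixes. The values of a pair of airway secretory genes were far higher in tumour VEH replicate 2 than in the other 5 VEH libraries, and neither gene was called. The antimicrobial lectin gene Reg3g was at 10.9, 545 and 53.2 CPM against 4.6, 5.85 and 3.2 CPM, and the airway protein gene Bpifa1 at 11, 993 and 155 CPM against 39.7, 2.08 and 23.7 CPM.

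Of transcription factors that specify lung, 10 of 16 were lower and 1, Sox9, higher (median -2.41), and 7 of these calls held in every leave-one-out fit. Without tumour VEH replicate 3, 6 were lower, and without both libraries that stand apart 12 (median -3.48). Only 4 were lower without the 4 libraries of conflicting prefixes. Gata6 (ENSMUSG00000005836, chromosome 18, 11051565 to 11086995), a factor of lung endoderm, fell from 42.8, 75 and 51.2 CPM to 9.18, 15.8 and 10.4 CPM (-2.25 ± 0.26, adjusted p 0.000385). Foxf1, a factor of lung mesenchyme and capillaries, fell from 281, 112 and 318 CPM to 10.1, 42.4 and 12.4 CPM (-3.45 ± 0.68, adjusted p 0.00367). The T-box genes of lung mesenchyme fell together, Tbx2 by 3.12, Tbx3 by 2.81, Tbx4 by 2.61 and Tbx5 by 3.38. Of these T-box calls only that of Tbx5 was lost when a library was left out, namely normal VEH replicate 1, tumour VEH replicate 1 or tumour VEH replicate 3 (adjusted p up to 0.0807). Nkx2-1, the factor that defines lung epithelium, was at 173, 185 and 212 CPM in normal lung and 9.43, 54 and 19.3 CPM in tumours, without overlap but with an adjusted p of 0.0634.

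Enzymes of xenobiotic metabolism, which the airway carries at high levels, were called lower for 11 of 20 genes (median -3.27). The count was 18 without both libraries that stand apart, but 5 without tumour VEH replicate 3. It was 3 without the 4 libraries of conflicting prefixes. Fmo2, the flavin monooxygenase of lung, fell from 730, 816 and 986 CPM to 14.2, 78.9 and 35.3 CPM (-4.30 ± 0.81, adjusted p 0.00306). Gstm1, a glutathione transferase gene, fell by 2.77 and the epoxide hydrolase gene Ephx1 by 2.60. The peroxiredoxin gene Prdx6, which also serves surfactant lipid turnover, fell from 1912, 1194 and 1594 CPM to 218, 436 and 284 CPM (-2.33 ± 0.26, adjusted p 0.000346). In these genes tumour VEH replicate 2 was the highest tumour throughout.

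**Figure D4:**
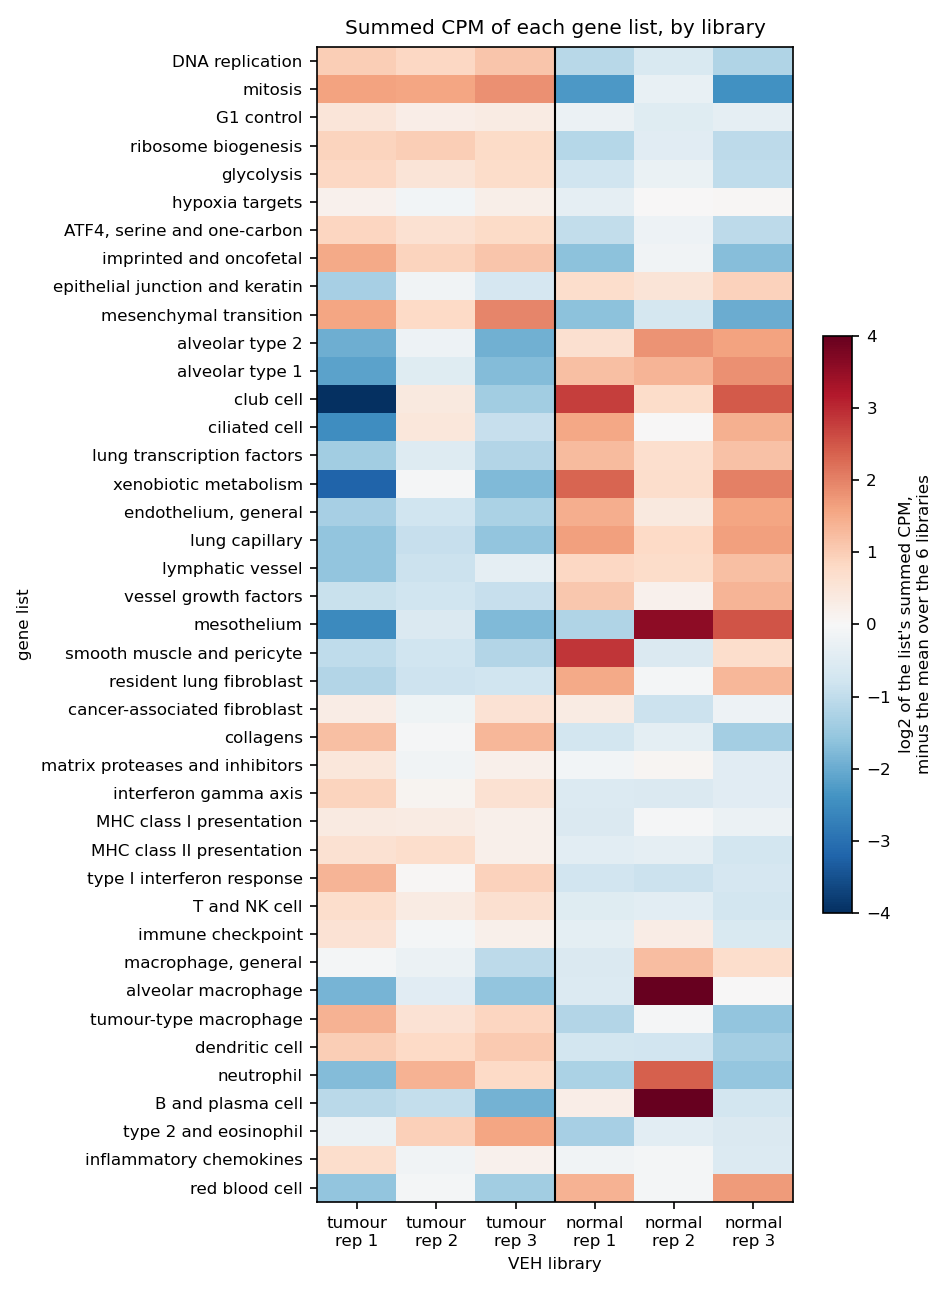
For each gene list (rows) and VEH library (columns), the colour gives the log2 summed CPM minus the mean of that list over the 6 libraries, on a scale from -4 to 4. Club, ciliated and xenobiotic genes are higher in tumour replicate 2 than in the other tumours, and alveolar macrophage and plasma cell genes are highest in normal replicate 2.

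The vascular genes fell almost without exception. All 15 endothelial genes and 14 of 15 lung capillary genes were lower (medians -2.62 and -3.07), and 13 and 11 of these calls held in every leave-one-out fit. Pecam1 (ENSMUSG00000020717, chromosome 11, 106543689 to 106641454), the junctional protein CD31, fell from 568, 297 and 614 CPM to 81.2, 127 and 79 CPM (-2.36 ± 0.36, adjusted p 0.00104). Bmpr2, the bone morphogenetic protein receptor of lung vessels, fell from 471, 373 and 542 CPM to 113, 122 and 120 CPM. The change was -1.96 ± 0.16 (adjusted p 0.000282), with little spread among the tumours. Gpihbp1, which anchors lipoprotein lipase on capillaries, fell by 2.59, and Ednrb, the endothelin receptor gene of alveolar capillary cells, by 3.22. Tek, the angiopoietin receptor gene, fell by 3.52 and the growth factor receptor gene Kdr by 2.61.

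Among vessel growth factors and their receptors, 7 of 15 fell and 1 rose, and 4 of these calls held in every leave-one-out fit. Vegfa itself fell from 330, 237 and 538 CPM to 54.3, 70.1 and 53.9 CPM (-2.63 ± 0.44, adjusted p 0.00167). The angiopoietin gene Angpt1 fell by 2.24, a call lost without 4 of the 6 libraries, namely normal VEH replicates 1 and 3 and tumour VEH replicates 1 and 2 (adjusted p up to 0.0947). Its antagonist Angpt2 was at 11.8 to 24.2 CPM in tumours and 7.17 to 18.2 CPM in normal lung and was not called. Vegfb rose by 0.80, with an adjusted p of 0.0542 without normal VEH replicate 3. Of 7 red blood cell genes 6 were lower, of which 1 held in every leave-one-out fit: 1 was called without tumour VEH replicate 1 or 3, and 3 without normal VEH replicate 3. Their summed level was 341 to 959 CPM in tumours and 959 to 3300 CPM in normal lung. The part of blood content in the vascular values was not tested. In the lymphatic list 1 of 7 genes, Lyve1, a hyaluronan receptor gene, was called (lower by 2.67).

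Mesothelial genes had the lowest median of all the lists, and the normal libraries were far apart here. Of 10 genes 8 were lower (median -6.95, or -6.42 with genes at 0 set to their bound), and 7 of these calls held in every leave-one-out fit. Without both libraries that stand apart 5 were called, and 1 without the 4 libraries of conflicting prefixes or with at least 10 counts required in every library. Upk3b, a uroplakin of the mesothelial surface, stood at 0.904, 216 and 224 CPM in normal lung and 0.085, 0.595 and 0 CPM in tumours. Normal VEH replicate 1 thus lay near the tumours. Lrrn4, a leucine-rich repeat gene of mesothelium, had no counts in any tumour or in normal VEH replicate 1 and stood at 145 and 45 CPM in normal replicates 2 and 3. The mean of normal lung was at least 505-fold higher than a floor of 3 counts per library in tumours. Wt1, the mesothelial transcription factor, was likewise at 0 in those 4 libraries and at 37.2 and 9.26 CPM in the other normal libraries, at least 123-fold higher in the mean. The Lrrn4 and Wt1 calls held in the leave-one-out fits (adjusted p up to 0.0498 and 0.0497) but not without both libraries that stand apart (0.0645 and 0.0652). How much surface each dissected piece held was not tested. Other large falls outside the list were Nkain4 (-5.54), Aldh1a2, which makes retinoic acid (-5.79), and Chrdl1, a bone morphogenetic protein antagonist gene. Chrdl1 was even across normal lung at 14.5, 15.4 and 23.5 CPM and at 0.17, 0.223 and 0.369 CPM in tumours (-6.12 ± 0.46, adjusted p 0.000253).

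Smooth muscle and pericyte genes were lower for 7 of 14 (median -2.82) and resident fibroblast genes for 10 of 15, with 1 higher. Notch3, the Notch receptor gene of mural cells, fell from 92.4, 31.9 and 54 CPM to 10.8, 10.3 and 10.3 CPM (-2.50 ± 0.48, adjusted p 0.00316). The tumour values were nearly identical. Of the smooth muscle and fibroblast calls 4 and 6 held in every leave-one-out fit. Lower calls of fibroblast genes numbered 5 without tumour VEH replicate 1 or 3, and 3 without the 4 libraries of conflicting prefixes. Without normal VEH replicate 2, 11 smooth muscle and pericyte genes were lower, and without normal VEH replicate 1, 4. The smooth muscle myosin gene Myh11 was at 366 CPM in normal VEH replicate 1 and at 24.6 and 44.7 CPM in normal replicates 2 and 3, against 3.57 to 14.4 CPM in tumours, and its call (-4.19, adjusted p 0.0192) was lost without normal VEH replicate 1, tumour VEH replicate 1 or tumour VEH replicate 3 (up to 0.0999). Normal VEH replicate 1 also held 235 CPM of the cardiac actin gene Actc1, against 6.48 and 8.97 CPM in the other normal libraries. Gpc3, a glypican of lung mesenchyme, fell from 168, 620 and 295 CPM to 3.82, 17.5 and 7.29 CPM (-5.24 ± 0.82, adjusted p 0.00134). Wnt2, a growth factor gene of alveolar fibroblasts, fell by 4.35 and the integrin gene Itga8 by 3.0.

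Dpt, a matrix protein gene of universal fibroblasts, was the member that rose, from 205, 98.2 and 114 CPM to 472, 342 and 606 CPM (1.77 ± 0.32, adjusted p 0.00222). Lum, a keratan sulfate proteoglycan of collagen fibrils, rose from 17.9, 110 and 9.68 CPM to 1335, 848 and 1536 CPM (4.76 ± 0.95, adjusted p 0.00388). In the list of cancer-associated fibroblast genes 6 of 13 were higher and 2 lower (median 2.07). With at least 10 counts required in every library the median was -0.993, with 3 called higher and 1 lower. The summed levels of the list overlapped, at 628, 452 and 769 CPM in tumours and 646, 279 and 446 CPM in normal lung. Inhba, an activin subunit gene, rose by 3.61 and the collagenase gene Mmp13 by 4.09. Fap, the activation protein of such fibroblasts, was uneven at 13.6, 1.41 and 56.5 CPM against 1.15, 1.64 and 0.168 CPM. Its call (adjusted p 0.0299) was lost without normal VEH replicate 1, 2 or 3 or tumour VEH replicate 3 (up to 0.124). Postn, a matricellular gene, was at 227, 38.1 and 180 CPM in normal lung and 23.4 to 60.8 CPM in tumours and was not called.

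The collagen genes split, with 9 of 23 higher and 9 lower (median -0.22), and 10 of these calls held in every leave-one-out fit. The split was 9 higher and 5 lower without both libraries that stand apart. It was 7 higher and 2 lower without the 4 libraries of conflicting prefixes. The fibrillar chain Col3a1 (ENSMUSG00000026043, chromosome 1, 45350698 to 45395840) was at 7988, 2860 and 9339 CPM in tumours and 491, 1414 and 288 CPM in normal lung, a rise of 3.20 ± 0.60 (adjusted p 0.00301). Some chains that associate with fibrils or membranes rose with it, Col16a1 by 3.33 ± 0.36, Col18a1 by 3.42 ± 0.51 and Col8a1 by 3.41 ± 0.43. Other chains of this kind were not called higher. The type I chains did not rise. Col1a1 was at 293, 111 and 249 CPM in tumours and 523, 150 and 89 CPM in normal lung (-0.22 ± 0.75, adjusted p 0.83). Col1a2 was called lower (-2.18 ± 0.61, adjusted p 0.0188), with overlapping groups and with the call lost without normal VEH replicate 1 or tumour VEH replicate 1 or 2 (up to 0.0844), and without both libraries that stand apart (0.0957). Set per kilobase of gene length, the mean tumour level of Col3a1 was 686 CPM and that of Col1a1 33.2 CPM, against 74.5 and 38.7 CPM in normal lung. Of 6 chains of type IV, which form basement membranes, 5 were called lower, and Col4a5 and Col4a6 held in every leave-one-out fit. Col4a5 went from 60.9, 65.5 and 142 CPM to 4.16, 17.2 and 6.64 CPM (-3.25 ± 0.63, adjusted p 0.0523 without the 4 libraries of conflicting prefixes) and Col4a6 changed by -3.10 ± 0.52. Col4a1, the chain not called, changed by -0.26 ± 0.28.

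**Figure D5:**
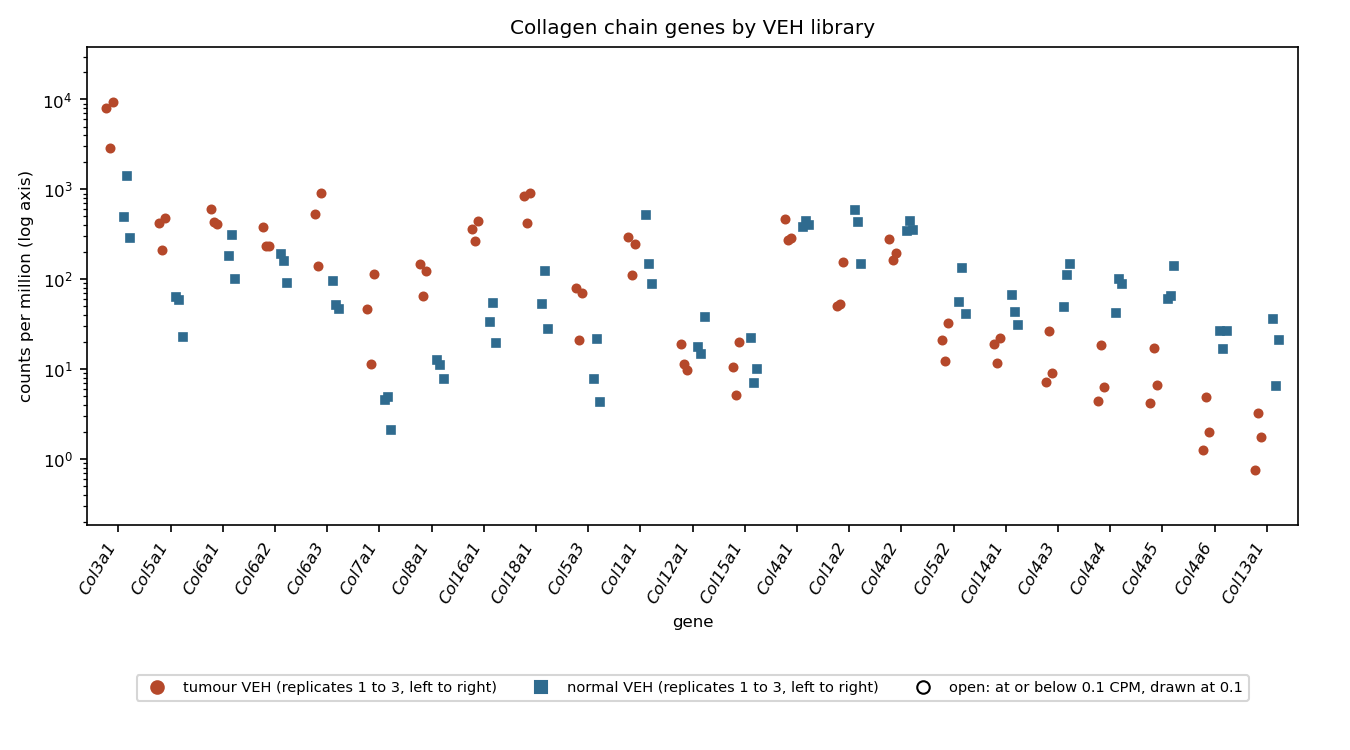
Levels in CPM (log axis) of 23 collagen chains in the 6 VEH libraries, 1 point per library, with replicates 1 to 3 from left to right in each group. Type III, XVI and XVIII chains separate with the tumours above, type IV chains 5 and 6 separate with the tumours below, and Col1a1 overlaps.

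Of 20 matrix proteases and inhibitors 6 rose and 3 fell (median 0.18). The median was 1.72 without normal VEH replicate 2 and 1.86 without both libraries that stand apart, with 8 higher in each. Plau, the urokinase gene, rose from 14.9, 27 and 8.21 CPM to 243, 85.2 and 228 CPM (3.47 ± 0.49, adjusted p 0.000874). Mmp14, the membrane-bound activator of gelatinase, rose by 2.58. The inhibitor gene Timp3 fell from 661, 726 and 572 CPM to 35.4, 109 and 48.4 CPM (-3.34 ± 0.58, adjusted p 0.0021), and the crosslinking enzyme gene Lox fell by 1.92. Timp1, at 34.3 to 37.9 CPM in tumours and 6.32 to 75.4 CPM in normal lung, was not called, but rose by 1.91 without both libraries that stand apart (adjusted p 0.00808).

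Interferon genes were higher in tumours. In the interferon gamma axis 8 of 20 rose and none fell (median 1.52), and 5 calls held in every leave-one-out fit. Cxcl9, a ligand of the T cell chemokine receptor CXCR3, stood at 165, 116 and 116 CPM in tumours and 0.0821, 3.71 and 0.674 CPM in normal lung. The ligand gene Cxcl10 rose by 4.02 ± 0.87, from 2.05, 12.9 and 3.2 CPM to 152, 33.6 and 110 CPM (adjusted p 0.00589). Il12rb1, a receptor subunit for interleukin 12, rose by 3.48 ± 0.49. The cytokine gene Ifng itself was at 0.552, 0.0744 and 1.2 CPM in tumours and at 3 counts or fewer in every normal library. That made the tumour mean at least 5.32-fold higher, and the gene was not called (adjusted p 0.057).

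In the type I interferon list 11 of 18 rose and none fell (median 2.08), and 6 calls held in every leave-one-out fit. Only 3 were called higher without the 4 libraries of conflicting prefixes. Irf7, the master factor of the response, was at 182, 105 and 127 CPM in tumours and 7.72, 22.2 and 14.7 CPM in normal lung (3.21 ± 0.54, adjusted p 0.00182). Zbp1, a sensor of Z-form nucleic acids that lies outside the list, was at 197, 70.9 and 192 CPM against 3.12, 15.7 and 6.65 CPM (4.17 ± 0.78, adjusted p 0.00301). In each of these genes tumour VEH replicate 2 was the lowest tumour. Promoters of the 4 genes that were called higher and hold the core of the interferon-stimulated response element, a repeat of GAAA with a spacer of NN between its copies, are shown with that core in capitals on either strand. They are the 130 bases before the start, from GRCm39: Isg15, a ubiquitin-like modifier (chr4:156285304-156285433, minus strand), Ifit1, a binder of foreign RNA (chr19:34618141-34618270, plus strand), Oas2, a synthetase of oligoadenylates (chr5:120887934-120888063, minus strand), and Rsad2, the antiviral enzyme viperin (chr12:26506452-26506581, minus strand).
Isg15: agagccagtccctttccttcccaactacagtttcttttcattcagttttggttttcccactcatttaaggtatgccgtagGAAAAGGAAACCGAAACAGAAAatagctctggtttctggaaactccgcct
Ifit1: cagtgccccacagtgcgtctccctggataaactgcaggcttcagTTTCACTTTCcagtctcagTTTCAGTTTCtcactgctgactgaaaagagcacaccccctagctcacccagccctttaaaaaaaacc
Oas2: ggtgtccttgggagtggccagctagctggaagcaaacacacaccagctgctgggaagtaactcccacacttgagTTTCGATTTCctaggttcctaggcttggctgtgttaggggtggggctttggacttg
Rsad2: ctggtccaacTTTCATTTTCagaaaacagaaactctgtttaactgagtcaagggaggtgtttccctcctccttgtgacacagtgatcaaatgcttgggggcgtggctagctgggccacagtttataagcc
The core occurred within 250 bases in 8 of 18 promoters of this list (44.4%) and in 3.25% of all, and in 3.95% of genes called higher. Of the 8, 4 belonged to genes called higher and 4 to genes not called. Isg15 was at 121, 33.2 and 76.3 CPM in tumours and 11.9, 9.41 and 11.5 CPM in normal lung (2.81 ± 0.60, adjusted p 0.00521). Calls of Ifit1, Oas2 and Rsad2 were lost in 3 or more leave-one-out fits, normal VEH replicate 1, tumour VEH replicate 1 and normal VEH replicate 3 among them for each (adjusted p up to 0.0726, 0.0715 and 0.0661), and that of Ifit1 also without both libraries that stand apart (0.0597). The string TTCNNNGAA, a binding sequence of STAT proteins, was in 5 of 20 promoters of the interferon gamma axis and in 6.77% of all.

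Antigen presentation genes had smaller median changes. Of 13 class I genes 7 were called higher, but with a median of 0.57. The count was 4 with DESeq2 size factors and 9 with scaling by library size only. It was 3 without both libraries that stand apart and 2 without the 4 libraries of conflicting prefixes. Nlrc5, the transactivator of class I, rose from 4.89, 7.24 and 9.14 CPM to 38.5, 12.2 and 36.7 CPM (2.04 ± 0.45, adjusted p 0.00568). The peptide transporter gene Tap1 rose by 1.46 ± 0.31. The class I heavy chain H2-K1 was at 1101, 1725 and 1087 CPM in tumours and 992, 1375 and 1284 CPM in normal lung and was not called. In class II 2 of 10 were called higher, and neither call held in every leave-one-out fit.

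T and NK cell genes were low in all libraries and higher in tumours for 6 of 18 called (median 1.53). Their summed level was 110 to 143 CPM in tumours and 52.6 to 65 CPM in normal lung. Cd8a, the coreceptor of cytotoxic T cells, was at 13.4, 6.99 and 20.3 CPM against 2.22, 2.61 and 1.52 CPM (2.68 ± 0.83, adjusted p 0.0278). None of the 6 calls held in all leave-one-out fits. No gene of the list was called without tumour VEH replicate 1, without tumour VEH replicate 3 or without normal VEH replicate 3. Foxp3, which marks regulatory T cells, was at 7.01 to 10 CPM in tumours and 9.6 to 12.3 CPM in normal lung.

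Checkpoint and costimulatory genes were called higher for 7 of 14 (median 2.24), and 4 held in every leave-one-out fit. Without normal VEH replicate 2, and without both libraries that stand apart, 11 were called higher. Pdcd1, which encodes the inhibitory receptor PD-1, was at 9.6, 6.32 and 9.32 CPM in tumours and 0.493, 0.189 and 0.0842 CPM in normal lung (5.02 ± 1.19, adjusted p 0.00869). Lag3, another inhibitory receptor gene of T cells, rose by 2.42. The costimulatory ligand genes Cd80 and Cd86 of antigen-presenting cells rose by 2.65 and 1.93. Cd274, the gene of the PD-1 ligand, was at 35.7, 13.7 and 30.1 CPM in tumours and 10.1, 51.2 and 18.5 CPM in normal lung. Its groups overlapped and the change was -0.01 ± 0.71.

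Macrophage genes divided by type. Of 9 general macrophage genes 4 rose and 1 fell (median 0.745). Their summed levels overlapped, at 3790, 3430 and 1950 CPM in tumours and 2680, 9380 and 6610 CPM in normal lung. Of 16 genes of tumour-type macrophages 6 rose, all in every leave-one-out fit, and none fell (median 0.68). The median was 2.55 without normal VEH replicate 2 and 2.66 without both libraries that stand apart, with 7 and 8 called. C1qa, a chain of complement C1q, was at 403, 328 and 311 CPM in tumours and 70.7, 89 and 26.4 CPM in normal lung (2.48 ± 0.38, adjusted p 0.00118). Ms4a7, a membrane protein gene of monocyte-derived macrophages, rose by 3.13 ± 0.45, and the secreted phosphoprotein gene Spp1 by 3.22 ± 0.78. Spp1 is also made by other cells. The growth factor gene Csf1, which maintains macrophages, rose by 2.01 ± 0.29. Members that overlapped between tissues included Arg1, at 64, 11.6 and 75.1 CPM against 1.48, 130 and 5.52 CPM, and Trem2, at 27.9 to 45.4 CPM against 6.37, 67 and 5.64 CPM. In both the high normal library was replicate 2, and without both libraries that stand apart both rose, by 4.32 and 2.61 (adjusted p 0.043 and 0.0249).

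Alveolar macrophage genes went the other way, with 6 of 11 lower and none higher (median -3.03). Of these calls 1, that of Pparg, a nuclear receptor of these cells, held in every leave-one-out fit. The summed level was 254, 8160 and 378 CPM in normal lung and 103, 271 and 124 CPM in tumours. The median was -1.63 without normal VEH replicate 2 and -1.82 with the library-name prefix as a block, with 2 called lower in each. It was -1.37 without the 4 libraries of conflicting prefixes, with 3 called lower. Siglecf, their surface lectin, was at 2.14, 10.5 and 4.38 CPM in normal lung and 0.277 to 1.1 CPM in tumours, and its call was lost without normal VEH replicate 2, tumour VEH replicate 2 or tumour VEH replicate 3 (adjusted p up to 0.0897), and without both libraries that stand apart (0.114). Chil3, a chitinase-like protein gene of these cells, was at 95, 7313 and 203 CPM in normal lung and was not called.

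The neutrophil calls rested on single libraries. The neutrophil genes S100a8 and S100a9 were at 248 and 356 CPM in normal VEH replicate 2 and at 5.64 to 21.4 CPM in the other normal libraries, against 1.86 to 6.46 CPM in tumours. They were the 2 of 14 neutrophil genes called lower, and without that library their adjusted p rose to 0.334 and 0.298; both calls were also lost without each tumour library, and without both libraries that stand apart (0.479 and 0.458). The median of the neutrophil list was -1.86 and became 1.34 without normal VEH replicate 2, where 2 genes were called higher. B and plasma cell genes were lower for 9 of 15 (median -2.42). Only 2 were called without tumour VEH replicate 1, 3 without tumour VEH replicate 3, 4 without both libraries that stand apart, 1 without the 4 libraries of conflicting prefixes, and 0 were called lower with the library-name prefix as a block. The call of the B cell receptor gene Cd79b, lower by 1.85, held in every leave-one-out fit. The plasma cell gene Jchain was at 12.5, 592 and 4.46 CPM in normal lung and 1.2 to 4.98 CPM in tumours, and its call was lost without normal VEH replicate 2 or any tumour (adjusted p up to 0.444), and without both libraries that stand apart (0.359). Of 11 dendritic cell genes 1 rose and 1 fell. The gene that rose was Fscn1, an actin bundler also present in motile tumour cells, from 26.9, 88.3 and 22.5 CPM to 424, 368 and 455 CPM. Clec9a, the receptor of cross-presenting dendritic cells, was at 16.4 to 22.9 CPM in tumours and 16.8 to 22.9 CPM in normal lung.

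Inflammatory chemokine and cytokine genes were higher for 5 of 18 and lower for 1. The gene that fell was Cxcl12, which retains leukocytes and stem cells in tissue, from 189, 149 and 144 CPM to 19.1, 33.8 and 26.8 CPM (-2.59 ± 0.51, adjusted p 0.00374). Ccl2, the monocyte attractant, was at 233, 79.4 and 116 CPM in tumours and 3.94, 53.4 and 3.7 CPM in normal lung and missed the threshold (adjusted p 0.0755). Without normal VEH replicate 2, 10 of the 18 were called higher, and 2 without normal VEH replicate 1 or 3. Without both libraries that stand apart 8 were called higher, Ccl2 among them (5.51, adjusted p 0.00823). Type 2 genes, of the arm of immunity that allergens engage, gave 1 call of 13 under VEH, the lower Siglecf.

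Genes with the largest differences in mean CPM, besides those above, had varied roles. Eef1a1, the elongation factor of translation, was at 12980, 11843 and 9555 CPM in tumours and 5794, 6840 and 5005 CPM in normal lung (0.96 ± 0.20, adjusted p 0.00477). The lysosomal protease gene Ctsl rose by 2.32 ± 0.51. Cbr2, a carbonyl reductase gene of club cells, was at 11537, 3366 and 9679 CPM in normal lung and 52, 1793 and 430 CPM in tumours, a call lost without normal VEH replicate 1 or tumour VEH replicate 3 (adjusted p up to 0.0794). The complement gene C3 was at 481, 6017 and 1014 CPM in normal lung and 147 to 280 CPM in tumours, and its call was lost without normal VEH replicate 2 or tumour VEH replicate 1 (up to 0.0638), or without both libraries that stand apart (0.102). Epas1, the hypoxia-inducible factor of endothelium, fell from 2521, 1739 and 3072 CPM to 67, 483 and 153 CPM (-3.38 ± 0.80, adjusted p 0.00878).

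Among the 12 largest rises outside the lists were a growth factor gene and a gene of vesicle traffic. Ptn, a heparin-binding growth factor gene, was at 333, 446 and 334 CPM in tumours and 4.52, 47.6 and 5.89 CPM in normal lung (4.26 ± 0.90, adjusted p 0.00518). Syt13, a synaptotagmin gene, was nearly level in the tumours at 32, 33.6 and 33.5 CPM, against 0.821, 4.47 and 0.168 CPM. Both were highest in replicate 2 among the normal libraries.

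Whether the difference between tumour and lung was itself different in the HDM animals was tested in the same fit. No gene passed an adjusted p of 0.05 for that difference (edgeR), the smallest adjusted p was 0.286, and 2084 genes had an unadjusted p below 0.05. A DESeq2 Wald test called 222. Medians were on opposite sides of 0 for some immune lists, such as T and NK cells (1.53 under VEH and -1.13 under HDM) and class II presentation (0.88 and -2.20). The difference of the medians was not tested. Growth lists gave rises in both, with mitosis at 3.07 and 4.17.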

How the data were processed

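RNA from 12 mouse lung tissue pieces was sequenced from both ends after a stranded library preparation, per the labels' protocols. These name both poly(A) selection and rRNA depletion without choosing between them. The submitters' processing notes name Trim Galore, STAR, featureCounts and Subread and the mm39 genome, with no settings. The deposited table holds raw read counts per Ensembl gene, with a column of gene length (another measure, in bases), per the file headers. Whether the counting used the strand is not given in the sources used here. Of 78298 gene identifiers, 78168 occur in GENCODE M39, which gave symbols and GRCm39 coordinates, and for 62058 the deposited length equals its exon length. The other 130 carried 0.143% of the counts.

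The tests used edgeR 4.0.16 under R 4.3.3. Genes passing filterByExpr (minimum count 10) were kept, libraries were scaled by TMM, and all 12 libraries entered 1 robust quasi-likelihood model with 4 group means, so that the groups share an estimate of spread. Tumour VEH was compared with normal VEH, and this difference with that under HDM, by its two-sided F-test, and p-values were adjusted over 22190 genes by the Benjamini-Hochberg method. A gene is called at an adjusted p below 0.05. The standard error is the log2 change divided by the square root of F. Where no library of a group exceeded 3 counts, the group was set at that floor and the fold is a bound. Replicate libraries differed by more than counting noise, and each was counted as a sample. The code was tested on simulated data.

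The comparison and the gene lists were chosen with earlier results of these data known, and the lists were written from general knowledge. Lists are described by counts and medians beside all genes. Named genes are members of the lists, the 12 called protein-coding genes per direction with the largest log2 change (average log2 CPM of at least 3, groups not overlapping, called in all 6 leave-one-out fits), the 8 per direction with the largest difference in mean CPM, and the 5 per direction with the smallest spread relative to their change. Promoters are the 250 bases before the start of the canonical transcript in GENCODE M39, read from the GRCm39 genome. Alternatives were DESeq2 size factors, library size only, other filters on low counts, the DESeq2 1.42.0 Wald test, a fit of the 6 VEH libraries, blocks for replicate number or name prefix, removal of 4 libraries with conflicting prefixes, exchange of 2 treatment labels, and leaving out each library or, chosen after seeing the data, both that stand apart.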

Additional observations from a re-analysis of the deposited data

How the results depend on the processing

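The count of 8624 called genes (4045 higher, 4579 lower) was 8594 with DESeq2 size factors, 10379 with the DESeq2 Wald test and 6790 in a fit of the 6 VEH libraries only. It was 9628 without both libraries that stand apart. Exchanging the treatment labels of 2 normal libraries gave 10739 calls, 5159 higher and 5580 lower, the largest count of all settings. Scaling by library size only moved the median change of all genes from -0.11 to 0.03 and the share of calls that were higher from 46.9% to 55.1%. Without the 4 libraries of conflicting prefixes 5603 genes were called, 2069 of them lower, and the higher share was 63.1%. Leaving out 1 library at a time gave 5733 to 9070 calls, 2872 to 4248 higher and 2451 to 4918 lower. The lowest counts of lower calls came without tumour VEH replicate 1 (2451) and replicate 3 (2477), where 57.2% and 58.3% of calls were higher. The cause was not tested. The replicate numbers do not follow the library-name prefixes. Deviations of same-numbered tumour and normal libraries from their group means correlated at -0.22, -0.30 and -0.023 over genes. Those of the same prefix correlated at -0.22 and 0.18. These values cannot decide how the libraries pair. The highest, 0.29, was between tumour VEH replicate 1 and normal VEH replicate 2, which share neither number nor prefix. A replicate block gave 7830 calls, and a block for the name prefix 5783, of which 2722 were lower. For the difference between HDM and VEH the main count of 0 became 222 with the DESeq2 Wald test and 186 when the treatment labels of 2 normal libraries were exchanged, and leaving out 1 library gave 0 to 1. No alternative turned the direction of a called gene named in the text. Of the main calls, 8479 were shared with DESeq2 size factors and 7421 with the fit without both libraries that stand apart. With libraries of 20608682 to 32765364 counts, genes near or below 1 CPM rest on few counts, and their changes are the least precise.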

Other observations

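Genes of the ribosome itself were higher in tumours: of 80 cytosolic ribosomal protein genes tested 61 were called higher and 1 lower, with a median change of 0.76. Of 522 pseudogenes 69 were called higher and 18 lower (median 0.56). Both are smaller shares than those of all genes tested (18.2% higher and 20.6% lower). Such copies can take reads from their parent genes. Of 12 protein genes of the mitochondrial genome 10 were called lower and none higher (median -2.02). By chromosome, the median change ran from -0.20 on X to 0.25 on 19 among the autosomes and X. These medians cover only protein-coding genes with an average log2 CPM of at least 3.

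Sex-linked genes differed between the tissues. The X-inactivation RNA Xist was at 33.9, 19.7 and 27.6 CPM in the tumours and 1.44, 3.68 and 1.52 CPM in normal lung (3.60 ± 0.67, adjusted p 0.00289, edgeR), and it overlaps Tsix on the opposite strand. The Y-linked helicase gene Ddx3y was at 12.9, 14.1 and 14.7 CPM in tumours and 69.4, 56.5 and 70.6 CPM in normal lung (-2.24 ± 0.17, adjusted p 0.000253). Both held in every leave-one-out fit. Y-linked Eif2s3y fell by 1.90.

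Cardiac muscle genes summed to 265, 49.9 and 21.4 CPM in the 3 normal libraries (replicates in order) and to 6.99 to 9 CPM in tumours. Adipose genes summed to 20.7, 80.9 and 10.7 CPM in normal lung. Skeletal muscle genes summed to 2.95 to 7.97 CPM over the 6 libraries. Allergen-related Retnla, a resistin-like gene of macrophages and epithelium, was at 47.2, 655 and 1010 CPM in the VEH tumours and 79.8 to 201 CPM in normal lung and was not called (adjusted p 0.306). The interleukin 33 receptor gene Il1rl1 was at 289, 27.1 and 310 CPM in tumours and 10.2, 101 and 4.29 CPM in normal lung (adjusted p 0.122), and rose by 5.37 without both libraries that stand apart (adjusted p 0.00277).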
